A study of Mus musculus with 7 samples.

Results

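The cytosolic ribosomal proteins are the protein parts of the ribosomes that translate nuclear-encoded messages. Genes were taken as members where an array row carried a single gene symbol made of Rpl or Rps, a number or a stalk number (such as p0), and at most 1 closing letter a, x or l. That rule found 58 of the 19938 genes with such a row, by symbol alone and without their values. The members were 30 proteins of the large subunit, the 3 stalk proteins, 19 proteins of the small subunit and 6 paralogs of these (Rpl3l, Rpl10l, Rpl39l, Rps27l, Rps4l and Rpl32l). Where a gene had several rows, the row of highest mean log2 intensity stood for it. Of 79 listed core ribosomal proteins, 52 were members. Another 16 appeared only in rows that list several genes, 8 are unnamed here, and Rpsa, Rps3a1 and Fau have symbols outside the rule.

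The muscle studied was the left plantaris, a fast calf muscle, in C57BL/6J males 5 months old. The hind limbs of all animals had been suspended for 2 weeks, which unloads the muscle. The control was sampled as suspension ended (d0), and reloaded muscle 1, 3, 5, 7, 10 and 14 days later. Each day has a single array, made from a pool of 6 animals, so a ratio of a later day to d0 compares 1 array with 1 array and has no replicate error and no test. All groups share the suspension, and no array of muscle that was never suspended was analysed here. Values are normalized intensities on a linear scale, the brightness of a gene's probes. Ratios are given as log2 of the later day over d0.

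Ribosomal proteins are assembled with ribosomal RNA in the nucleolus, and muscle growth under load is known to go with the making of new ribosomes. Their messages usually begin with a run of pyrimidines, the terminal oligopyrimidine tract, through which mTORC1 signalling and the RNA-binding protein Larp1 set how strongly they are translated. An array measures the amount of message and not its translation. Most members are needed in every cell, whereas Rpl3l is the form of Rpl3 found in heart and skeletal muscle, and Rpl10l and Rpl39l are known mainly from the testis.

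The 7 arrays had median intensities of 128.1 to 131.8 across 35556 rows. A gene was kept where it reached its array's median on at least 1 array, which left 12102 genes and 57 of the 58 members. Rpl39l did not pass, with intensities of 33.2 to 46.2 over the 7 arrays. All 15 listed skeletal muscle markers were kept, and their summed intensity was 212191 at d0, 204981 at d1 and 216525 at d10. The same value appeared on at least 2 arrays for 13 of the 57 members (22.8%), against 55.5% of all kept genes. Many ribosomal protein genes have near-identical pseudogenes, and whether a row's probes also match these was not tested. In RNA from whole muscle, fewer cells of a type and less RNA per cell cannot be told apart.

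As a group the ribosomal protein genes stood close to d0. The median log2 ratio of the 57 kept members was 0.068 at d1, 0.045 at d3, 0.12 at d5 and -0.073 at d7, followed by 0 at d10 and -0.043 at d14. Over all 12102 kept genes the median was 0.10, 0.066, 0.048, 0.075, 0.096 and 0.076 on the same days. Relative to that shift of all genes the members stood at -0.034, -0.021, 0.071, -0.15, -0.096 and -0.12, so at d1 and d3 their small positive medians turned negative on the scale centred on kept genes. Their median lay above that of all kept genes at d5 and below it on the 5 other days. No member differed from d0 by 2-fold on any day, and the log2 ratio farthest from 0 was that of Rpl7 at d5, 0.75. These ratios all share the d0 array.

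**Figure D1:**
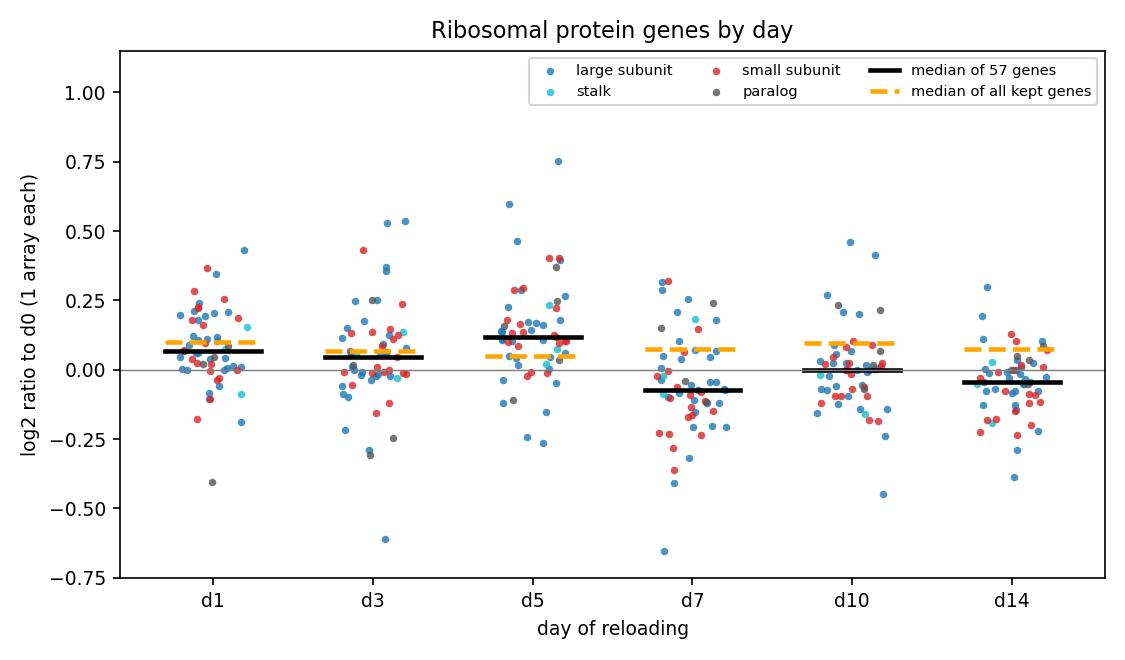
The plot shows the log2 ratio to d0 of each of the 57 kept ribosomal protein genes (1 point per gene, coloured by large subunit, stalk, small subunit or paralog) on each later day, 1 array against 1 array. The black bar is the members' median, 0.12 at d5 and -0.073 at d7, and the dashed bar the median of all 12102 kept genes. The members' medians of 0.068 at d1 and 0.045 at d3 lie below the dashed bar, and are negative once that bar is set to 0.

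A log2 ratio past 0.32 either way was used to count members that stood apart from d0. At d1, 3 of 57 members were higher past that mark (Rpl5, Rpl9 and Rps19), against 15.8% of all kept genes, and Rpl3l alone was lower, against 3.07%. At d3, 5 members were higher (Rpl7, Rpl9, Rpl10a, Rpl12 and Rps19), against 9.95%, and Rpl14 was lower, against 2.8%. At d5, 7 were higher (Rpl7, Rpl9, Rpl10a, Rpl24, Rps12, Rps19 and Rps27l), against 8.59%, and 0 were lower, against 3.35%. Higher counts thus lay near or below the background share through d3. The d5 count was 12.3% of the members, against 8.59%, and Rpl10a and Rpl24 passed there on only some of their rows. No excess at d5 is read from this count. At d7, 0 members were higher, against 12.4%, and Rpl14, Rpl23 and Rps28 were lower, against 2.86%. At d10, Rpl7 and Rpl9 were higher, against 13.3%, and Rpl23 was lower, against 2.39%. At d14, 0 were higher, against 7.25%, and Rpl23 was lower, against 1.8%. Some calls in both directions rest on the row used. The other row of Rpl23 stood at -0.27, -0.21 and -0.29 at d7, d10 and d14, short of the mark. Rows of Rps28 ranged from -0.36 to -0.21 at d7, and Rpl14 read 113 there, below the array medians. Rows of Rpl5 ranged from 0.24 to 0.35 at d1, and at d5 those of Rpl10a from 0.29 to 0.41 and of Rpl24 from 0.30 to 0.47.

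Counted by any amount, 44 of 57 members were above d0 at d1, 32 at d3 and 47 at d5. On d7 the count was 18, on d10 28 and on d14 17. The shares of all kept genes above d0 on these days were 70.9%, 65.5%, 61.1%, 66%, 72.2% and 71.3%. Members above d0 were a smaller share than among all kept genes at d3, d7, d10 and d14. Their share was larger at d5 (82.5%) and slightly larger at d1 (77.2%). At d1 the members' median ratio still lay below that of all kept genes, 0.068 against 0.10. On all 6 later days 9 members were above d0, against 39% of kept genes, and 4 were below it, against 7.68%. Among the 9, other rows of Rpl24 (-0.023 at d7), Rpl28 (-0.0054 at d1) and Rps14 (-0.28 at d7) fell below d0. The 4 below d0 were Rpl3l, Rpl4, Rps4x and Rps6, on the rows that stand for them. Other rows of Rps6 reached 0.021 at d1 and 0.020 at d5, and a row of Rps4x reached 0.068 at d5. Outside d7, the row used for Rps6 stood no lower than -0.016.

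Among the members farthest from the rest, Rpl3l is the muscle paralog and is shown with its annotated starts, because it was the member with the lowest ratio at d1. RefSeq (GRCm38.p6) promoters, 250 bases before to 50 after a start, matched 46 of the 58 members, with 55 promoters in all. The windows below run from 60 bases before the start to 20 after it, except for the second start of Rpl3l, where the window begins 140 bases before it. Capitals mark a pyrimidine run of at least 5 bases that begins with C near the start. In the second Rpl3l window they mark instead a match to the consensus of MEF2, a family of muscle transcription factors. The windows are chr17:24727766-24727845 (plus strand) and chr17:24732545-24732704 (plus strand) for Rpl3l, chr10:23787190-23787269 (minus strand) for Rps12, chr17:33955646-33955725 (minus strand) for Rps18, chr17:33824543-33824622 (minus strand) for Rps28, chr5:65391412-65391491 (minus strand) for Rpl9 and chr11:97782420-97782499 (minus strand) for Rpl23. Rps12, Rps18 and Rps28 are small-subunit genes that were lower at d7 than at d5, and Rpl9 was above d0 on every later day. On the row that stands for it, Rpl23 was the lowest member at d10 and d14.
Rpl3l, start 1: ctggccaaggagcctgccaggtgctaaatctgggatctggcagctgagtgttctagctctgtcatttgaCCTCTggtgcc
Rpl3l, start 2: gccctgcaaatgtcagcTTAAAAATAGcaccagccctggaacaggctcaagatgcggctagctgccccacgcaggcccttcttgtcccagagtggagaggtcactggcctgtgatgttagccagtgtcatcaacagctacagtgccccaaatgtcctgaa
Rps12: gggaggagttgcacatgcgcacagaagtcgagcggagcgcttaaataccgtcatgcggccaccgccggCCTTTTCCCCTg
Rps18: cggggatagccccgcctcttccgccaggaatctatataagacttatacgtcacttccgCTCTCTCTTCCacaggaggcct
Rps28: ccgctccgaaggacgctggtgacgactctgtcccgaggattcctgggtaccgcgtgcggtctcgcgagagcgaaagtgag
Rpl9: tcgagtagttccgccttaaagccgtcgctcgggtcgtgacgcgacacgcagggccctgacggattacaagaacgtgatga
Rpl23: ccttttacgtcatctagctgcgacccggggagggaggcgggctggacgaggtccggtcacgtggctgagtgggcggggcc

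A pyrimidine run of at least 5 bases that begins with C, within 5 bases before to 16 after the start on the coding strand, was present in 26 of the 55 member promoters (47.3%), against 25.4% of all 32851 promoters. On the other strand the same run was in 18.2% of member promoters, against 29.1%. CCGGAAG on either strand, the core of ETS factor sites, was in 32.7% of member promoters, against 8.86%, and CACGTG, the E-box that MYC can bind, in 12.7%, against 7.15%. TATAAA on either strand was in 10.9% of member promoters, against 13.6%. The MEF2 consensus, on either strand and able to overlap TATAAA, was in 1 of 55 member promoters, that of the second Rpl3l start, from 123 to 114 bases before it, against 3.19% of all promoters. Such matches describe letters in these windows.

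Rpl3l had an intensity of 2676.4 on d0, 2023.4 on d1, 2164.3 on d3, 2482.5 on d5, 2466.4 on d7, 2552.5 on d10 and 2581.7 on d14. The d0 array was the highest and the d1 array the lowest, with every later array above d1. Its log2 ratios were -0.40, -0.31, -0.11, -0.12, -0.068 and -0.052 from d1 to d14. On arrays centred on the kept genes they were -0.51, -0.37, -0.16, -0.19, -0.16 and -0.13. At d1, 1.99% of all kept genes had a ratio at or below that of Rpl3l, and at d3 3.10% did. In a limma fit over all 12102 kept genes, a straight trend of Rpl3l on log2(day + 1) had a slope of 0.027 (SE 0.040, adjusted p = 0.862). With the d0 array left out its slope was 0.13 (SE 0.024, adjusted p = 0.0964), and with the d1 array left out it was -0.0061 (adjusted p = 0.961), so the sign rests on d1.

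Rpl3, the general form, is a large-subunit protein that reaches towards the site of peptide bond formation. It has no row that names it alone. The array holds 7 rows (6 of them with distinct values) that list Rpl3 together with the pseudogene Gm5879, and 2 of these also list Rpl3-ps1, Ralgps2 and Syngr1, so their signal cannot be assigned to Rpl3. A row that lists all 5 symbols read 967.7, 1738.9, 1145.8, 1052.7, 883.4, 898.7 and 897.1 from d0 to d14. Its d1 array stood well above the other 6. Over the 7 rows the d1 signal was 1.70- to 1.86-fold that of d0 (log2 0.76 to 0.90). The rows stood at 0.15 to 0.25 on d3 and 0.10 to 0.22 on d5. They stood at -0.16 to 0.035 on d7, -0.21 to -0.10 on d10 and -0.17 to -0.044 on d14. Of 19822 rows that passed the filter, 313 had a d1 ratio at least as high as the lowest of the 7.

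The log2 ratio of Rpl3l minus the median ratio of the Rpl3-listing rows was -1.249 at d1, -0.47 on d3, -0.23 on d5, 0.014 on d7, 0.078 on d10 and 0.084 on d14. The gap in response was widest at d1 and lay within 0.1 of 0 from d7 on. These are differences between changes and say nothing of which of the genes has more message. In a limma fit over the 19822 rows, the straight trends of the 7 rows had slopes of -0.15 to -0.099 (adjusted p of 0.565 to 0.676), and the curved course had adjusted p of 0.444 to 0.499. With d0 left out the slopes were -0.36 to -0.29 (adjusted p of 0.120 to 0.137).

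**Figure D2:**
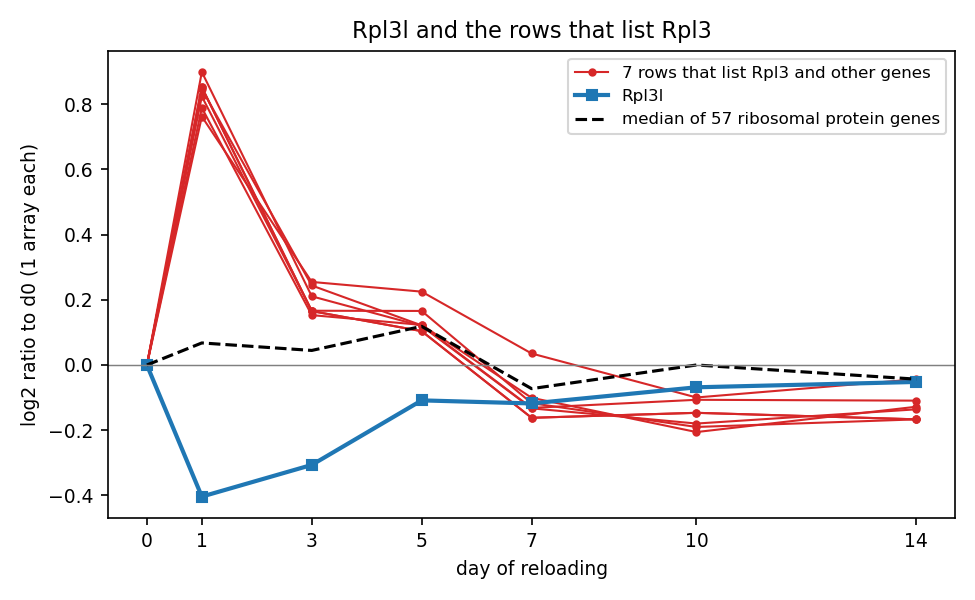
The plot shows log2 ratios to d0 by day of reloading for Rpl3l (squares) and for each of the 7 rows that list Rpl3 with other genes (circles), with the median of the 57 ribosomal protein genes dashed. At d1 the 7 rows lie between 0.76 and 0.90 and Rpl3l at -0.40.

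Of the other kept paralogs, none lay as far from d0 as Rpl3l at d1 (-0.40) or d3 (-0.31), while from d5 on some lay farther from it than Rpl3l did. Rps27l, a target of p53 that resembles Rps27, had intensities of 2982.9 on d0, 3026.4 on d1, 3020.1 on d3, 3852.8 on d5, 2897.3 on d7, 3020.1 on d10 and 2981.5 on d14. Its d5 array stood alone above 6 arrays that lay within 2897.3 to 3026.4, and its d5 log2 ratio was 0.37. Rpl10l read 165.7, 171, 139.6, 169.8, 195.6, 194.7 and 169.6 from d0 to d14, with ratios of -0.25 at d3 and 0.24 at d7. Its X-linked partner Rpl10, a large-subunit protein needed for the joining of subunits, read 10357.6, 11143.4, 10188.1, 9534.2, 9771.1, 9706.9 and 9867. The d1 array was its highest and the d5 array its lowest, with ratios of 0.11 and -0.12. Rps4l, annotated as a transcribed pseudogene, had its highest ratio at d5 (0.25). The row that stands for its X-linked relative Rps4x was below d0 on all 6 days (-0.013 at d5 to -0.23 at d7). Another row of Rps4x reached 0.068 at d5. Rpl32l had ratios of -0.073 (d7) to 0.25 (d3). Rpl11, Rpl39, Rps27 and Rps27a have no row that names them alone.

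Among large-subunit proteins, Rpl7 and Rpl9 stood farthest above d0. Rpl7 had intensities of 1507.2 on d0, 1781 on d1, 2185.9 on d3, 2536.5 on d5, 1878.8 on d7, 2072.7 on d10 and 1627.6 on d14. Its d0 array was the lowest and its d5 array the highest, 1.68-fold d0 (log2 0.75). Rpl9 read 3129.2, 4225.2, 4511.5, 4732.5, 3819.6, 4170.8 and 3845.1 from d0 to d14. All 6 later arrays lay above d0, and over its 8 rows the d5 ratio was 0.56 to 0.83. Rpl10a, a protein of the flexible stalk where spent transfer RNA leaves the ribosome, read 6824, 7881.2, 8729, 8983.7, 7881.2, 7881.2 and 7329. Again d0 was lowest and d5 highest, with a ratio of 0.40. Rpl24 had its highest ratio at d5 as well (0.47) and Rpl12, which sits at the base of the acidic stalk, at d3 (0.37).

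Rpl5, which binds Mdm2 together with Rpl11 when ribosome assembly is disturbed, had intensities of 2877.9 on d0, 3658.4 on d1, 3422.2 on d3, 3515.2 on d5, 2982.1 on d7, 2878.7 on d10 and 2728.5 on d14. The arrays of d1 to d5 stood above the other 4, with a ratio of 0.35 at d1. Rpl23, another large-subunit protein known to bind Mdm2, read 3675.9, 3686.4, 3008.6, 3062.7, 2769.3, 2695.2 and 2812.6. On this row the d0 and d1 arrays were close to each other, and the 5 arrays from d3 on all lay below them. The ratio of Rpl23 was -0.29 at d3, -0.41 at d7, -0.45 at d10 and -0.39 at d14. Its other row gave 0.17 at d1, -0.15 at d3, -0.27 at d7, -0.21 at d10 and -0.29 at d14, so there d1 stood above d0. Rpl4, which lines the exit tunnel of the nascent peptide, read 2561.2, 2418.3, 2202.8, 2304.8, 2219.8, 2170.6 and 2198.2. Its d0 array was the highest, and its ratios lay between -0.24 (d10) and -0.083 (d1).

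Rpl14, a large-subunit protein with a low signal on this array, had intensities of 177.5 on d0, 155.7 on d1, 116.3 on d3, 150 on d5, 113 on d7, 180.4 on d10 and 145.3 on d14. Its d3 and d7 arrays were lowest, with ratios of -0.61 and -0.65, and d0 and d10 were alike. Those values lie near the array medians of 128.1 to 131.8. Rpl8 had its lowest ratio at d7 (-0.32), and Rpl23a stood at -0.11 at d1 and 0.14 at d5. Over the 13 rows of Rpl23a these ratios ranged from -0.11 to 0 and from 0.14 to 0.33.

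The stalk proteins recruit elongation factors to the ribosome. Rplp0, their anchor, had intensities of 9334.8 on d0, 10382 on d1, 9700.2 on d3, 9475.6 on d5, 9184 on d7, 9210.7 on d10 and 9019.3 on d14. Its d1 array was highest, with a ratio of 0.15. Rplp1 had ratios of 0.0058 (d10) to 0.18 (d7), and Rplp2 ratios of -0.19 (d14) to 0.23 (d5). On these rows the 3 stalk proteins had their highest arrays on different days. The other row of Rplp1 stood at 0.30 on d5 and 0.080 on d7, and so was highest at d5, as Rplp2 was.

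In the small subunit, Rps19, the gene most often mutated in Diamond-Blackfan anaemia, had intensities of 696.6 on d0, 899.1 on d1, 939.9 on d3, 921.6 on d5, 870.4 on d7, 708 on d10 and 748.1 on d14. The arrays of d1 to d7 stood together above d0, d10 and d14, and the ratio was 0.43 at d3. Rps28 read 1669, 1899.2, 1802.9, 2035.3, 1298, 1534.3 and 1472.7 from d0 to d14. Its d5 array was the highest and its d7 array the lowest, with ratios of 0.29 and -0.36. Rps12 read 1593, 1704.6, 1750.4, 2105.1, 1415.9, 1525.5 and 1353.5. Its d5 array also stood highest (0.40), and its d14 array lowest (-0.24). Rps18, a protein of the head of the subunit, had ratios of 0.29 at d1, -0.23 at d7 and -0.18 at d10. Its 7 rows ranged from 0.17 to 0.29 at d1, -0.30 to -0.17 at d7 and -0.18 to -0.10 at d10. The row that stands for Rps14 was above d0 on all 6 days, with ratios of 0.091 (d10) to 0.26 (d1). Its other row disagreed at d7, at -0.28 against 0.15, the widest gap between rows of any member.

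Rps6, the protein phosphorylated by the S6 kinases when mTORC1 is active, had intensities of 12429.7 on d0, 12385.8 on d1, 12368.6 on d3, 12371.2 on d5, 11658.5 on d7, 12292.6 on d10 and 12368.6 on d14. The other arrays lay within 12292.6 to 12429.7, and the d7 array lay below them, with a ratio of -0.092. The 13 members with a mean log2 intensity of at least 12 had a median SD over the 7 arrays of 0.0680, against 0.111 for the 44 dimmer members. Over all kept genes the same medians were 0.0916 and 0.106.

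**Figure D3:**
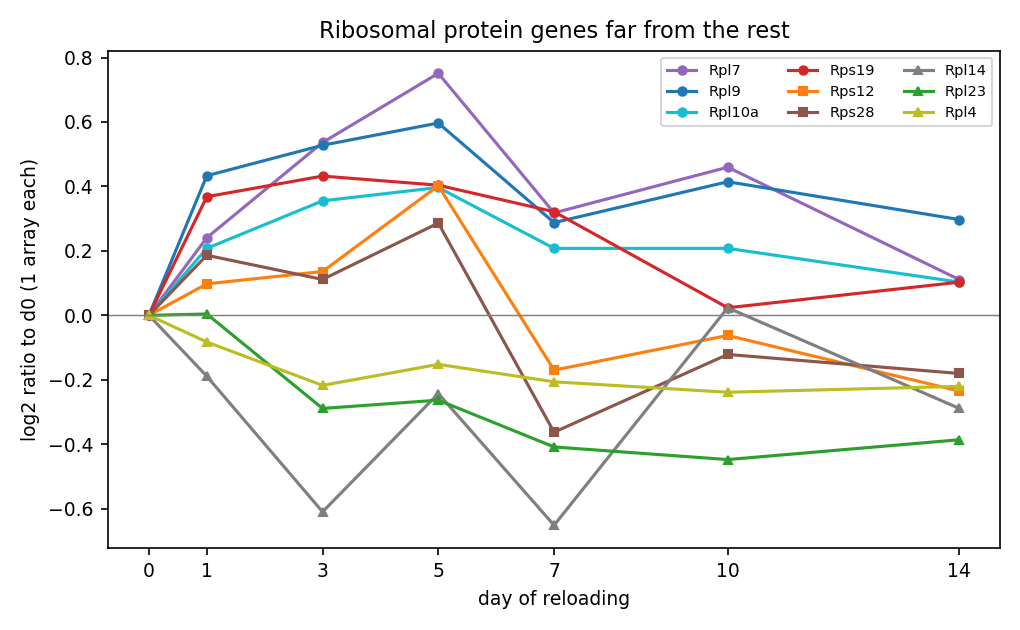
The plot shows log2 ratios to d0 by day of reloading for 9 of the named members, 1 array per day. Not all of them stood far from the others, as the ratios of Rpl4 lie between -0.24 and -0.083. Rpl7 reaches 0.75 at d5 and Rpl14 -0.65 at d7, and Rps12 and Rps28 lie above d0 at d5 and below it at d7.

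The step between d5 and d7 was the widest that the group took between adjacent time points, a pattern picked out after the values were seen. The median log2 ratio of d7 over d5 was -0.19 over the 57 members, against 0.022 over all kept genes. At d7, 51 of 57 members were below their d5 value, against 36% of kept genes, and 11 were lower past 0.32 on the log2 scale, against 1.95%. Those 11 were Rpl7, Rpl8, Rpl14, Rpl24, Rps12, Rps13, Rps18, Rps25, Rps27l, Rps28 and Rps29. All 19 small-subunit members were lower at d7 than at d5 (median -0.23), as were 26 of 30 large-subunit members (-0.16) and 2 of 3 stalk proteins (-0.045). On the rows that stand for the genes, the lowest ratio was that of Rps28 (-0.65) and the highest that of Rpl10l (0.20). This order depends on the row. Against d0 at d7, the rows of Rps28 ranged from -0.36 to -0.21 and those of Rps25 from -0.61 to -0.28.

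The array of d5 was the strict highest of the 7 for 30 of 57 members, against 6.13% of kept genes. The d1 array was the highest for 14 members, against 28.3%. Few members were highest on the other arrays, with 4 at d0 (against 7.68%), 4 at d3 (7.47%), 3 at d7 (18.5%), 2 at d10 (21.3%) and 0 at d14 (9.93%). The array of d7 was the strict lowest for 24 members, against 12.7% of kept genes, and that of d14 for 13, against 4.32%. The d0 array, the lowest for 39% of kept genes, was the lowest for 9 members. The counts of lowest values were 3 at d1 (against 10.6%), 1 at d3 (8.24%), 1 at d5 (15.3%) and 6 at d10 (9.35%). At d5, 44 members were above both d3 and d7, against 21.4%, and at d7, 35 were below both d5 and d10, against 30.4%. With 1 array for each day, a difference between days and a difference between these 2 arrays or pools cannot be told apart.

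Medians of other lists on the same pair of arrays lay on either side of 0. Ribosome biogenesis factors had a median of -0.024, with 19 of 36 lower. Other genes with a terminal pyrimidine tract had one of -0.041, with 10 of 15 lower. Fibroblast markers stood at -0.12 and endothelial markers at 0.077. Mitochondrial ribosomal proteins, which serve the separate ribosomes of mitochondria, had a d7 over d5 median of -0.084. Of these, 57 of 77 were lower, against 36% of all kept genes. The macrophage markers had a median of -0.21, with 12 of 13 kept markers lower and a summed intensity of 3890.3 at d7, against 4995.2 at d5. Neutrophil markers had a median of 0.28, with 12 of 12 kept markers higher, and skeletal muscle markers one of 0.037. Among the kept neutrophil markers, S100a8 (90.6 at d0) passed the filter only through later arrays. The part of these cell types in the members' values was not tested.

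No member had a straight trend over the 7 time points that passed the test. In the limma fit on log2(day + 1), 0 of 57 members and 0 of 12102 genes had an adjusted p under 0.05. A simulation with separate noise for each gene gave 50 genes each a total log2 change of 0.5, 1, 2 or 3, all at once. This fit recovered 28% of those given 0.5 and 86% of those given 1. Large changes in many genes ease the adjusted threshold, so these rates may be too high for data where no gene passed. Trends as small as most changes of the members could thus be missed. At an unadjusted p under 0.05, 0 members had a positive slope, against 9.19% of kept genes, and 3 had a negative one, against 1.45%: Rpl23, Rpl4 and Rpl30. The slope of Rpl23 was -0.13 (SE 0.023, adjusted p = 0.243). Slopes were positive for 19 of 57 members, against 66.4% of kept genes. With d0 left out, 1 member had a positive slope at an unadjusted p under 0.05 (Rpl3l, against 6.88%) and 12 a negative one, against 6.39%, and adjusted p was again not under 0.05 for any member.

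A curved course, a linear and a quadratic term in log2(day + 1) tested together by limma, gave 0 members with an adjusted p under 0.05 and 11 at an unadjusted p under 0.05, against 14.3% of kept genes. The 5 smallest p-values belonged to Rpl5, Rpl9, Rpl10a, Rpl23 and Rps19, with adjusted p of 0.195 to 0.231.

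Genes whose products assemble ribosomes had their highest median at d1. The median log2 ratio of 36 kept ribosome biogenesis factors was 0.35 at d1, and 0.021, -0.0057, -0.0039, 0.082 and 0.027 from d3 to d14. At d1, 35 of 36 were above d0, against 70.9% of all kept genes, and 20 were higher past 0.32, against 15.8%, with Rrp12, a factor of subunit processing and export, at 568.9 at d1 against 304.9 at d0 (0.90). On the same uncentred scale the d1 median was 0.068 for the ribosomal proteins (-0.034 once centred on kept genes) and 0.10 for all kept genes. The 8 listed chaperones of ribosomal proteins had a median of 0.27 at d1 and 0.024 to 0.073 on later days, led by Ltv1, a factor of small-subunit assembly (0.40 at d1). These lists were written with earlier results of these data known. They are read by eye beside the members, and no test compared them.

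Other genes whose messages carry a terminal pyrimidine tract had medians of 0.070, 0.045, -0.034, -0.044, 0.021 and -0.00026 from d1 to d14. These cover 15 of 17 listed, since Eef1g and Hnrnpa1 have no row that names them alone. At d5 that median lay below 0 while that of the ribosomal proteins was 0.12. Eef1a1, the elongation factor that delivers transfer RNA, read 5737.5 at d1 against 4594.5 at d0 (0.32), while Eef1a2, its form in adult muscle and neurons, read 5407 at d1 against 5904.1 at d0 (-0.13). At d7 Eef1a2 read 6860.5 against 5904.1 at d0 (0.22). Mitochondrial ribosomal proteins had medians of 0.021, 0.090, 0.18, 0.11, 0.16 and 0.15. Of these 77 genes, 66 were above d0 at d5, against 61.1% of all kept genes, and 68 at d14, against 71.3%.

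Of 16 listed regulators of ribosomal protein synthesis, 14 were kept, with a median of 0.18 at d1, against 0.10 over all kept genes. Rps6kb1 and Trp53 have no row that names them alone. Mycn, whose ratio was the farthest from 0 among the 14, is below the array median at d0 and passed the filter through later arrays. No value of its own is read from it, though the median includes it. Of the ribosomal proteins outside the symbol rule, Rps3a1 had ratios of 0.29 at d1 and -0.30 at d14, Rpsa of 0.16 and -0.12, and Fau, a ubiquitin-like fusion with a small-subunit protein, of 0.016 and 0.026. Rpl7l1 stood at 0.19 at d1. Macrophage markers had a median of 0.46 at d1, with all 13 kept markers higher, led by Cd68 (2.04), and a summed intensity of 6130 at d1 against 3785.9 at d0. Neutrophil markers had their highest median at d10, 2.26. Of these, S100a8 read 90.6 at d0, below the array medians, and 811.8 at d10. It passed the filter through later arrays, so this median rests partly on the filter.

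**Figure D4:**
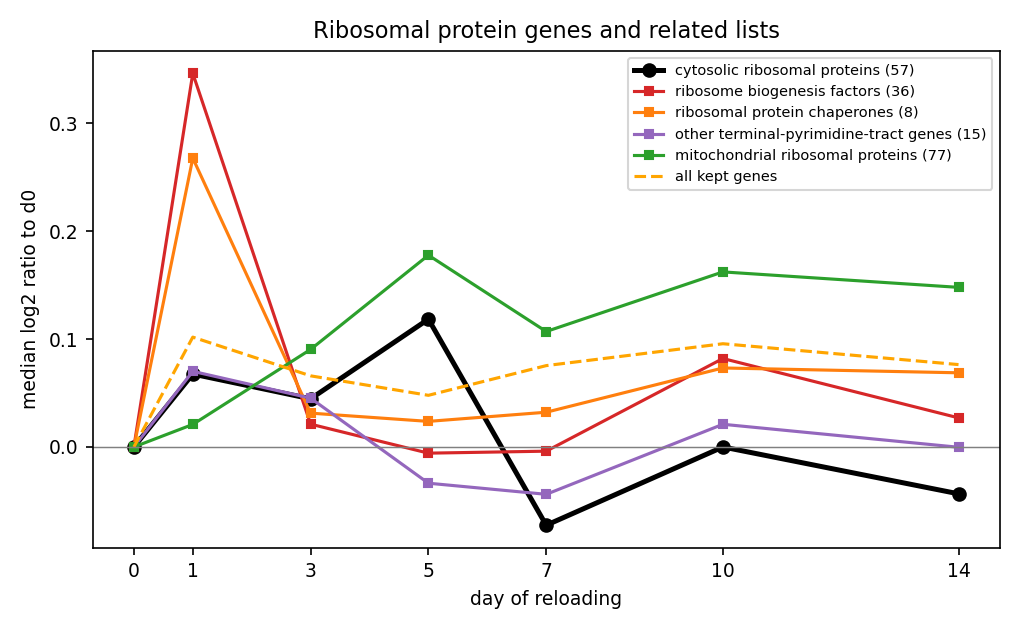
The plot shows the median log2 ratio to d0 by day for the 57 cytosolic ribosomal proteins (black), 36 ribosome biogenesis factors, 8 ribosomal protein chaperones, 15 other genes with a terminal pyrimidine tract, 77 mitochondrial ribosomal proteins and all kept genes (dashed). Biogenesis factors stand at 0.35 at d1, where the ribosomal proteins stand at 0.068 (-0.034 relative to all kept genes), and the ribosomal proteins have 0.12 at d5 and -0.073 at d7.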

How the data were processed

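The authors deposited 1 table of intensities on a linear scale, 1 value per row and array of the Affymetrix Mouse Gene 1.0 ST design. The submitters' processing notes name Partek. The build and the way values were normalized and background-corrected were not given in the sources used. The log2 scale was used with no pseudocount (0 added).

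Of 35556 rows, 21789 carry 1 gene symbol, 1621 several and 12146 are unnamed here. Genes reaching their array's median on at least 1 array were kept (12102). Of 58 members, 38 had several rows, over which ratios ranged by a median of 0.156 at their widest. The trend fits used limma 3.58.1 (R 4.3.3), with Benjamini-Hochberg adjustment over all genes. Python 3.11.15, numpy 2.4.6, pandas 2.3.3 and matplotlib 3.10.9 were used elsewhere, and a self-check of the straight trend ran on simulated data.

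The members follow from the symbol rule, and the other lists were written with earlier results of these data known. Named were Rpl3, Rpl3l, other paralogs and their partners, stalk proteins, Rps6, Rpl5, Rpl11, Rps27a, the 4 highest and 4 lowest members of each day, those of largest SD, slope or smallest curve p, ribosomal proteins outside the rule, Eef1a1, Eef1a2 and the leading gene of each other list. Rpl3 has no row of its own, so rows that list it with other genes took its place, a choice made after seeing the data. Alternatives were another normalization, equal array medians, averaging all rows of a gene, d14 as the reference, a pseudocount of 16, other filters and fold thresholds, other scales of the day and each time point left out. Detection above background is not given, since scanner output was not used here.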

Additional observations from a re-analysis of the deposited data

How the results depend on the processing

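No paired analysis was possible because each time point is 1 array. With 1 pool per day, no ratio has an error, and low signals such as that of Rpl14 cannot be set against background here.

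A log2 value was counted as moved where it shifted by over 0.05, and a count where it shifted by over 1.5 times. Counts within that limit still varied, as for members lower past 0.32 at d7 than at d5, with 16 under equal array medians or kept-gene centring, against 11. Quantile normalization put the member median of d1 at 0.027. Centring arrays on the kept genes, chosen after seeing the data, turned the member median at d1 and d3 to -0.034 and -0.021 and moved it to -0.15 at d7, -0.096 at d10 and -0.12 at d14. It gave 2 members past 0.32 on the log2 scale at d1, 5 at d7 and 2 at d14. Quantile normalization gave 2 at d1. At 1.5-fold the counts were 0, 1, 2, 1, 0 and 0 from d1 to d14, and at 2-fold 0 on every day. For d7 over d5, 1 was lower past 1.5-fold and 0 past 2-fold. Against d14, the member median was 0.12 at d1 and -0.012 at d7, and 1 member passed at d10. Against d14, Rpl3l minus the Rpl3-listing rows was -1.34, -0.59, -0.33, -0.071 and 0.0069 from d1 to d10, so that it changed sign at d7, as it did with the mean of a gene's rows (-0.0078). Leaving out each time point gave slopes of Rpl3l of -0.0061 (without d1) to 0.13 (without d0), and 0 members with a straight trend or curved course in every case. Over all kept genes, however, 19 had a positive and 24 a negative trend at an adjusted p under 0.05 without d0, against 0 with all arrays, and 29 a curved course without d0 and 7 without d1. The planned slope of Rpl3 and its difference from Rpl3l could not be run on a row of Rpl3 alone.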
